A study of Mus musculus with 16 samples.

Results

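The circadian clock genes and the transcription factors that carry the clock's output were described in kidney RNA of mice without multifunctional protein 2 (MFP2, also D-bifunctional protein, encoded by Hsd17b4), a peroxisomal enzyme of fatty acid beta-oxidation. The members were the probes whose updated gene symbol was Dbp, Tef, Nfil3, Cry1, Cry2, Per1, Per2, Per3, Arntl (also Bmal1) or Clock. Of these 10 genes 7 were measured, by 9 probes, among 9846 named genes tested. No probe carrying the symbol of Cry2, Arntl or Clock was found, so these 3 genes were not analysed here. The members were chosen from their mutant over pool values, so those values are given as a description and no test of them is reported for a member.

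The mutants were 4 males labelled MFP2-/- and 15 weeks old. On two-colour cDNA arrays the kidney RNA of each was set against 1 RNA pool of 5 wild-type males of the same age, of a strain labelled Swiss (SWR/Ola Hsd). The labels do not name the genetic background of the mutants, so genotype and background cannot be told apart. Each mouse had 4 arrays, 2 with the mutant in Cy5 and 2 with the mutant in Cy3, 16 in all. The pool is a single control sample, so the spread among wild-type mice is not part of any value below. The sources used here do not give the hour at which the kidneys were taken, and its part in the values was not tested.

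In the clock's core loop BMAL1 and CLOCK bind E-box sequences and switch on the Per and Cry genes, whose proteins return to block BMAL1 and CLOCK. The same pair drives Dbp and Tef, which encode PAR bZIP factors that activate genes through D-box sequences, while NFIL3 (E4BP4) represses through the same D-boxes. In many peripheral tissues Dbp mRNA has a wide daily swing, with Nfil3 mRNA high when Dbp is low, and in the kidney the clock and the PAR bZIP factors set daily rhythms of water and salt transport. The set therefore pairs the feedback loop with its output arm, which bears on whether mutant and pool kidneys stood at different points of the daily cycle.

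The 250 bases before the annotated starts of Dbp, Tef, Cry1 and Per3 are shown because these windows show both kinds of clock element, and their absence, among the measured members. They come from RefSeq, assembly GRCm38.p6, 5′ to 3′ on the gene's strand, with capitals marking a match to the E-box CACGTG, its variant CACGTT (read AACGTG on the other strand) or the D-box TTATGTAA. The last base of each line is the one before the start.
Dbp, chr7:45704997-45705246, plus strand: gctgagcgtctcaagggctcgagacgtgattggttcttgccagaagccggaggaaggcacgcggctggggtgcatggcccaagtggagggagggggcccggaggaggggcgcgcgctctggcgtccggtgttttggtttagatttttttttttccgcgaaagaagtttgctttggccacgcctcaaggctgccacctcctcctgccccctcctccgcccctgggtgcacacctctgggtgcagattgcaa
Tef, first start, chr15:81802423-81802672, plus strand: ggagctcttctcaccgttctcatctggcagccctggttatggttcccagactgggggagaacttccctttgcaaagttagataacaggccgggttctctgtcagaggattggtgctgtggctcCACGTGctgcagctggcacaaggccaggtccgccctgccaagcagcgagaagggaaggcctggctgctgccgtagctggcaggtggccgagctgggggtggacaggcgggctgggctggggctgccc
Tef, second start, chr15:81811164-81811413, plus strand: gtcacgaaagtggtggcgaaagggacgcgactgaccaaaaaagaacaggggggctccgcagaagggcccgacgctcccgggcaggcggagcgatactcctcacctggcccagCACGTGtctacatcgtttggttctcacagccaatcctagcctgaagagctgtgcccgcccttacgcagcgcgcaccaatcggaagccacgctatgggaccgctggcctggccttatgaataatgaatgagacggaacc
Cry1, chr10:85185055-85185304, minus strand: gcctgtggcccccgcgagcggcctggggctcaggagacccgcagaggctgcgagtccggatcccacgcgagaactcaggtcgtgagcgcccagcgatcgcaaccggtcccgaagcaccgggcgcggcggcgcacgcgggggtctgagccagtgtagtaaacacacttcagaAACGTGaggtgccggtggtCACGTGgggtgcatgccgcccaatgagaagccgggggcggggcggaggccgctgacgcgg
Per3, chr4:151044666-151044915, minus strand: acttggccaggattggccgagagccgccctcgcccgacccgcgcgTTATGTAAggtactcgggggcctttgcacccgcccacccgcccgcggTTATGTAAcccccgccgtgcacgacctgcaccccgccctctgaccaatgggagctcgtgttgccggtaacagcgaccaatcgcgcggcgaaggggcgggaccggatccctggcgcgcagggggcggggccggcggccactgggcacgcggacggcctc
Each Tef window held 1 CACGTG, its first base 127 and 138 bases before the respective start. In Cry1 a CACGTG began 60 bases and an AACGTG 79 bases before the start, and Per3 held 2 copies of TTATGTAA, 205 and 158 bases before it. No match to these motifs or to the D-box form TTACGTAA lay in the Dbp window, and none in those of Nfil3, Arntl and Clock, which are not printed. Of the other windows, the first of the 2 of Per1 held a CACGTG and that of Cry2 an AACGTG. Among 32851 windows of this length in the table, searched on both strands, 6.02% held CACGTG, 3.85% CACGTT, 0.819% TTATGTAA and 0.113% TTACGTAA. A match is a description of the letters in this window and not a measured binding site, and clock elements outside it were not searched.

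Values are log2 ratios of mutant over pool after each array was centred on its median, averaged within and then over the dye orientations of a mouse, and errors are the SD over the 4 mice. The sources used here do not give the direction of the deposited ratios. It was inferred from the labels, where channel 1 is the mutant whichever dye it carried. Every sign below rests on that inference. Across probes, arrays in opposite orientations had a median Spearman rho of -0.10 (from -0.40 to 0.24), against a median of 0.34 for repeat arrays of one mouse and orientation. Rows at an unadjusted limma p under 0.05 for mutant against pool numbered 1459 under this direction and 3256 with the values read as Cy5 over Cy3, so the direction is not settled by these values. Across all 9846 named genes the median of the means was 0.01, percentiles 10 and 90 were -0.12 and 0.20, and the median SD between mice was 0.15.

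Of the output activators, Dbp was above the pool by 0.55, 0.40, 0.35 and 0.41 in mice 1 to 4. Its 16 arrays ran from 0.17 through a median of 0.40 to 0.75, so every array of every mouse lay on the higher side. The mean was 0.43 ± 0.085 (SD, n = 4), a 1.35-fold level, and ranked 143 from the highest of the 9846 genes. The orientations gave nearly the same value, 0.44 with the mutant in Cy5 and 0.42 with the mutant in Cy3.

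Tef, which encodes thyrotroph embryonic factor, a second PAR bZIP activator, was at 0.32, 0.40, 0.24 and 0.31 in mice 1 to 4. Its mean was 0.32 ± 0.065 (SD, n = 4), a 1.25-fold level, which ranked 335 from the highest. All 4 mice lay above the pool, as did the average of its 2 probes on all 16 arrays. The probes differed in size. Probe 13742 had a mean of 0.50 ± 0.18 (SD, n = 4) and lay above the pool on 15 of 16 arrays, whereas probe 8936 had 0.13 ± 0.073 (SD, n = 4) and lay above it on 11. With the mutant in Cy3 probe 8936 was at -0.01, so the height of Tef in that orientation came from probe 13742, which was at 0.44.

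**Figure D1:**
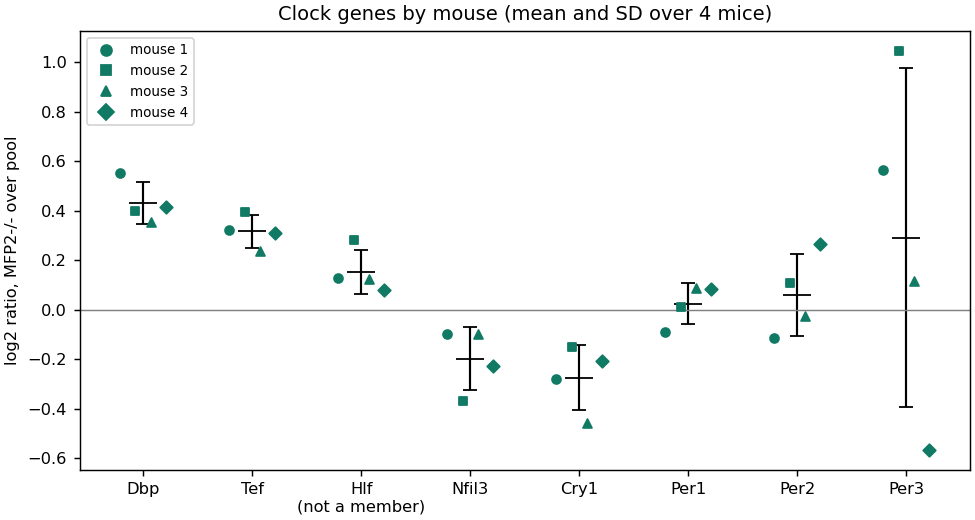
Mean log2 ratio of mutant over pool for each measured clock member and for Hlf, which is not a member, with 1 point per mouse, a bar at the mean and an error bar of 1 SD over the 4 mice. Dbp and Tef lay above 0 in all 4 mice and Nfil3 and Cry1 below 0 in all 4, while the mice spread from -0.57 to 1.05 for Per3.

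Nfil3, the repressor that competes at D-boxes, was at -0.10, -0.37, -0.10 and -0.23 in mice 1 to 4. Its arrays ran from -0.48 through a median of -0.30 to 0.42, and 13 of 16 lay below the pool. All 4 mice were low, with a mean of -0.20 ± 0.13 (SD, n = 4), a 0.872-fold level. The 3 arrays above the pool all had the mutant in Cy5. In that orientation the mean was -0.03 ± 0.22, against -0.36 ± 0.055 (SD, n = 4 mice) with the mutant in Cy3, where all 4 mice lay between -0.43 and -0.31.

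Cry1, a repressor of the core loop, was at -0.28, -0.15, -0.46 and -0.21 in mice 1 to 4, below the pool in each. Its mean was -0.27 ± 0.13 (SD, n = 4), but its arrays ran from -2.09 through a median of -0.15 to 0.62. The lowest was 1 of the arrays of mouse 3 with the mutant in Cy5. With the mutant in Cy5 the mean was -0.60, and with the mutant in Cy3 it was 0.05, so the lower value came from one orientation. With the median of arrays in place of the mean within each mouse, Cry1 was at -0.13.

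The Period genes, whose proteins partner with the cryptochromes, gave no common direction. Per1 was at -0.09, 0.01, 0.09 and 0.09 in mice 1 to 4, with a mean of 0.02 ± 0.083 (SD, n = 4). Per2 was at -0.11, 0.11, -0.03 and 0.27, with a mean of 0.06 ± 0.17 (SD, n = 4). Both lay on either side of the pool, and each mean was smaller than its SD. The 2 probes of Per2 had means of 0.10 and 0.02. Per1 was above the pool on 8 of 16 arrays and Per2, as the average of its probes, on 9.

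Per3 was at 0.57, 1.05, 0.12 and -0.57 in mice 1 to 4, a mean of 0.29 ± 0.69 (SD, n = 4) that is smaller than its spread. Its arrays ran from -4.62 through a median of 0.08 to 3.81. The SD of repeat arrays of one mouse and orientation was 1.57, against a median of 0.25 over all named genes, at percentile 99.4. No level can be read for Per3 from these arrays.

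**Figure D2:**
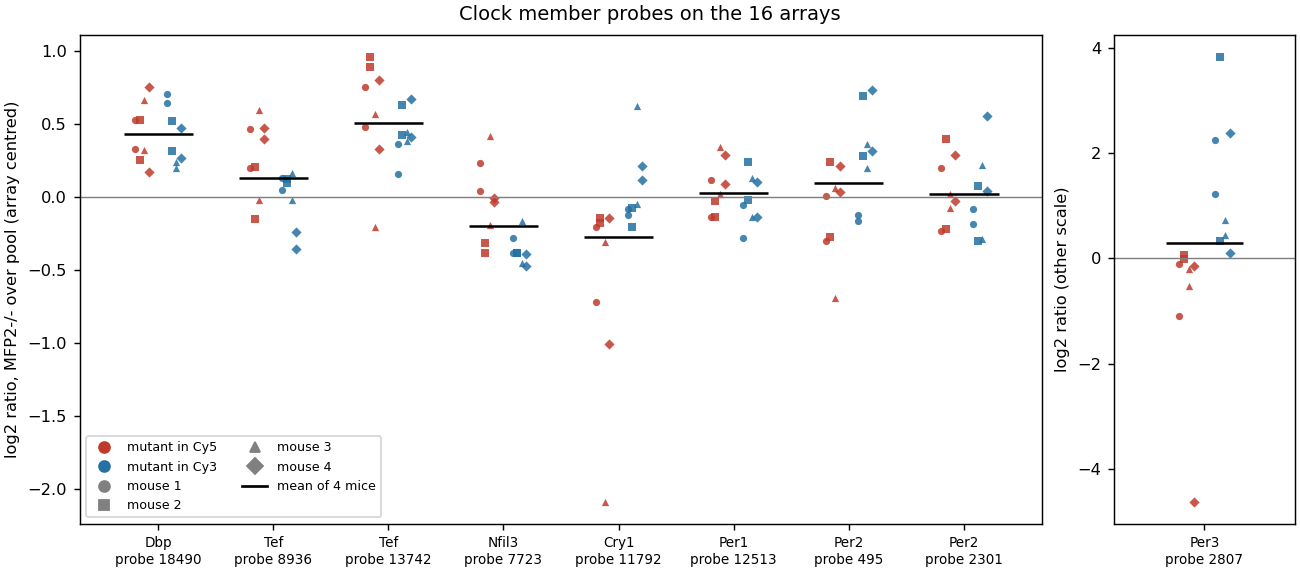
Log2 ratio of each clock member probe on each of the 16 arrays, by mouse (marker) and dye orientation (colour), with a bar at the mean of the 4 mice and Per3 on a wider axis of its own. Dbp lay above 0 on all 16 arrays, Nfil3 below 0 on 13, and Per3 ran from -4.62 to 3.81.

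Read as a set, 2 of the 7 members lay above the pool in all 4 mice (Dbp and Tef), where 10% of all 15856 rows (named genes and unnamed probes) measured in all 4 mice did so. Another 2 of 7 lay below it in all 4 (Nfil3 and Cry1), against 9.42% of rows. Dbp and Tef were the 2 members above the pool on all 16 arrays, as were 0.157% of the rows with a value on every array, and 0 members were below it on all 16, against 0.0341% of rows. Nothing is read from these counts, since that contrast chose the members. Over the whole table, limma with Benjamini-Hochberg adjustment called 0% of 16140 rows for mutant against pool at an adjusted p of 0.05, and 1459 rows had an unadjusted p under 0.05.

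Within each mouse, Dbp exceeded Nfil3 by 0.65, 0.77, 0.45 and 0.64, a difference of log2 ratios of 0.63 ± 0.13 (SD, n = 4). The difference had the same sign in all 4 mice. Nothing is read from that, since both genes were chosen from these values and all mice share 1 pool. The orientations gave 0.47 with the mutant in Cy5 and 0.78 with the mutant in Cy3. Tef exceeded Nfil3 by 0.51 ± 0.19 (SD, n = 4), and Dbp exceeded Tef by 0.11 ± 0.091 (SD, n = 4).

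Set against the core loop, Dbp exceeded the mean of Per1, Per2, Per3 and Cry1 by 0.53, 0.15, 0.42 and 0.52 in mice 1 to 4, or 0.40 ± 0.18 (SD, n = 4). It was higher in every mouse, which is a description only, since these values chose the members. The orientations differed widely, with 0.79 for the mutant in Cy5 and 0.02 for the mutant in Cy3. Without Per3 the difference was 0.71, 0.41, 0.49 and 0.37, a mean of 0.49 ± 0.15 (SD, n = 4). The mean of the 4 measured Per and Cry genes was itself at 0.03 ± 0.16 (SD, n = 4). The limb of the loop made of Arntl and Clock was not analysed here, so repressors were not compared with activators of the core loop.

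Differences between mice and between dye orientations were not used to choose the members and were tested with limma over 15856 rows. Of the 7 members 0 differed between mice at an adjusted p of 0.05, where 0.189% of rows did, and 0 did so at an unadjusted p under 0.05, where 11.2% of rows did. The members' adjusted limma p-values for mice ran from 0.566 for Per2 to 0.951 for Cry1. A p that misses the threshold does not show that the mice were alike.

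Dye orientation set members apart more often, as it did the rest of the array. Per3 differed between orientations by -2.24 (mutant in Cy5 minus mutant in Cy3, limma adjusted p = 0.049), which makes 1 of 7 members where 8.40% of rows passed. Without mouse 1, 2, 3 or 4 that adjusted limma p was 0.20, 0.053, 0.113 and 0.123, and it was 0.057 with extreme spots kept, so the call was lost under each. For Nfil3 the difference was 0.33 (limma adjusted p = 0.055), and it passed without mouse 2 (0.028), with arrays scaled to the same median absolute deviation (0.043) and without centring (0.013). At an unadjusted limma p under 0.05, 4 of 7 members differed (Cry1, Nfil3, Per3 and Tef), against 29.9% of rows. Dbp had a difference of 0.02 (limma adjusted p = 0.907) and Per1 of 0.09.

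**Figure D3:**
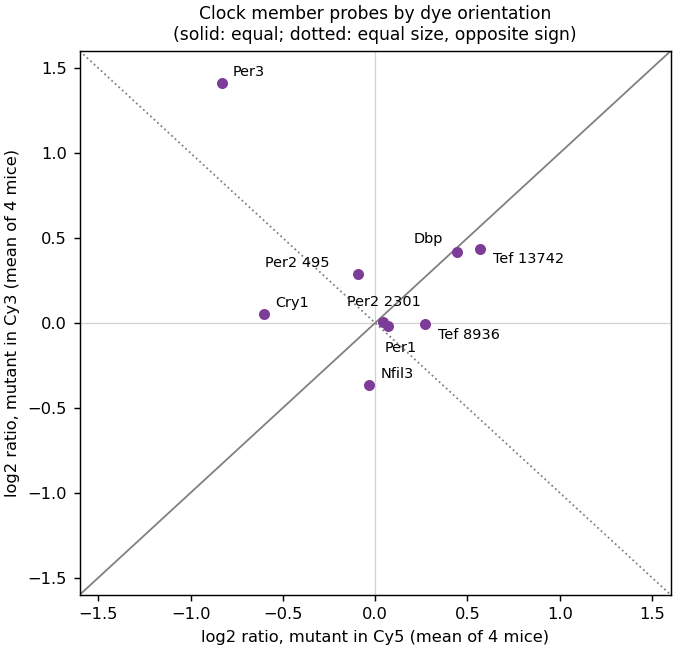
Mean log2 ratio of each clock member probe over the 4 mice, with the mutant in Cy5 on the horizontal axis and in Cy3 on the vertical axis. Dbp lies near the line of equal values at 0.44 and 0.42, whereas Per3, at -0.83 and 1.41, has opposite signs.

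The order of the members turned on the inferred direction of the ratios. Read instead as Cy5 over Cy3, Dbp was at 0.01, Tef at 0.10, Nfil3 at 0.17 and Per3 at -1.12, and Dbp minus Nfil3 was -0.16. Under that reading the steady value of Dbp became a dye difference of 0.86 and that of Tef one of 0.63. These differences restate the mutant over pool values that chose the members, so no test of them is given. Cry1 under the same reading was at -0.33 ± 0.31 (SD, n = 4), a mean about as large as its spread.

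The remaining clock regulators include the receptor repressors Nr1d1 and Nr1d2 and the third PAR bZIP gene, Hlf. Of 28 listed genes 16 were measured, and their median was 0.05, beside 0.06 for the 7 members and 0.01 for all named genes. Of the 16, 2 were higher in all 4 mice and 0 lower. Over all rows measured in all 4 mice, 10% were higher and 9.42% lower in all 4. Limma's adjusted test against the pool passed 0 of the 16, as it passed 0 of all 16140 rows. Hlf was at 0.13, 0.28, 0.12 and 0.08, a mean of 0.15 ± 0.089 (SD, n = 4), and lay above the pool on 15 of 16 arrays. It thus stood on the same side as Dbp and Tef, at a smaller value, with its probes at 0.21 and 0.09. Mouse 3 was at -0.01 on the first probe and mouse 4 at -0.05 on the second. All 4 mice thus lay above the pool only in the average of the probes. Csnk1a1, encoding a casein kinase, was at 0.15 ± 0.099 (SD, n = 4), with -0.02 in the Cy5 and 0.32 in the Cy3 orientation (limma adjusted p = 0.040 for the difference). Nr1d1, which encodes REV-ERB alpha and is itself driven from E-boxes, was at 0.03 ± 0.25 (SD, n = 4), with mice at 0.29, -0.31, 0.11 and 0.02 on either side of the pool.

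Genes that PAR bZIP factors are known to drive did not share one direction. Of 10 listed, 6 were measured, 2 higher and 1 lower in all 4 mice (against 10% and 9.42% of all rows). Their median was 0.07, and 0 passed limma's adjusted test against the pool, as did 0 of all rows. Pdxk, which encodes pyridoxal kinase, was at 0.21, 0.74, 0.21 and 0.59 in mice 1 to 4, a mean of 0.44 ± 0.27 (SD, n = 4). Its value was uneven between orientations, with 0.06 for the mutant in Cy5 and 0.81 for the mutant in Cy3. Ppara, encoding the fatty-acid-sensing nuclear receptor, was at 0.10 ± 0.056 (SD, n = 4), and Alas1, encoding the first enzyme of haem synthesis, at -0.18 ± 0.18 (SD, n = 4). Ppara was at 0.21 with the mutant in Cy5 and -0.004 with the mutant in Cy3, so its higher value came from one orientation. Alas1 was lower in each mouse, but it was at 0.02 with the mutant in Cy5 and -0.39 with the mutant in Cy3 (limma adjusted p = 0.046 for the difference), so its lower value came from one orientation.

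Among 7 measured of 12 listed kidney transport genes with daily rhythms, 3 were higher and 0 lower in all 4 mice. The shares of all rows were 10% and 9.42%. Their median was 0.18, and 0 of the 7 passed the adjusted limma test, as did 0 of all rows. Aqp2, the vasopressin-regulated water channel of the collecting duct, was at 0.43, 0.81, 0.23 and 0.38, a mean of 0.46 ± 0.25 (SD, n = 4). Wnk4, a kinase that regulates distal salt transport, was at 0.18 ± 0.13 and the glycine transporter gene Slc6a9 at 0.10 ± 0.048 (SD, n = 4). Slc6a9 was at 0.17 with the mutant in Cy5 and 0.02 with the mutant in Cy3.

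Glucocorticoids and body temperature also set the phase of peripheral clocks, so their responsive genes were read beside the members. Of 11 glucocorticoid-induced genes 7 were measured (Per1 is one of them), with a median of -0.12. In all 4 mice 0 were higher and 2 lower (against 10% and 9.42% of all rows). The 2 lower genes were Tat at -0.18 ± 0.12 and Dusp1 at -0.12 ± 0.070 (SD, n = 4). Dusp1 was at 0.03 with the mutant in Cy5 and -0.26 with the mutant in Cy3, so its lower value came from one orientation. Of 11 genes responsive to body temperature 9 were measured, 1 higher and 5 lower in all 4 mice (against 10% and 9.42% of all rows). Their median was -0.39 and ran from -0.59 to -0.17 over the mice. The list holds heat-induced and cold-induced genes together. Hspa1a, the heat-inducible chaperone, was at -1.41, -1.54, -1.41 and -0.67 in mice 1 to 4, a mean of -1.25 ± 0.40 (SD, n = 4). It lay below the pool on all 16 arrays. Dnaja1, a co-chaperone, was at -0.78 ± 0.18 and Rbm3, a cold-induced RNA-binding protein, at 0.54 ± 0.32 (SD, n = 4). Cirbp, the other cold-induced gene listed, was at 0.08 ± 0.14 (SD, n = 4), with mouse 2 at -0.12. It lay above the pool on 10 of 16 arrays and was named after its values were seen. None of the 16 rows of these lists passed limma's adjusted test against the pool, as none of all 16140 rows did. Their part in the clock members' values was not tested.

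**Figure D4:**
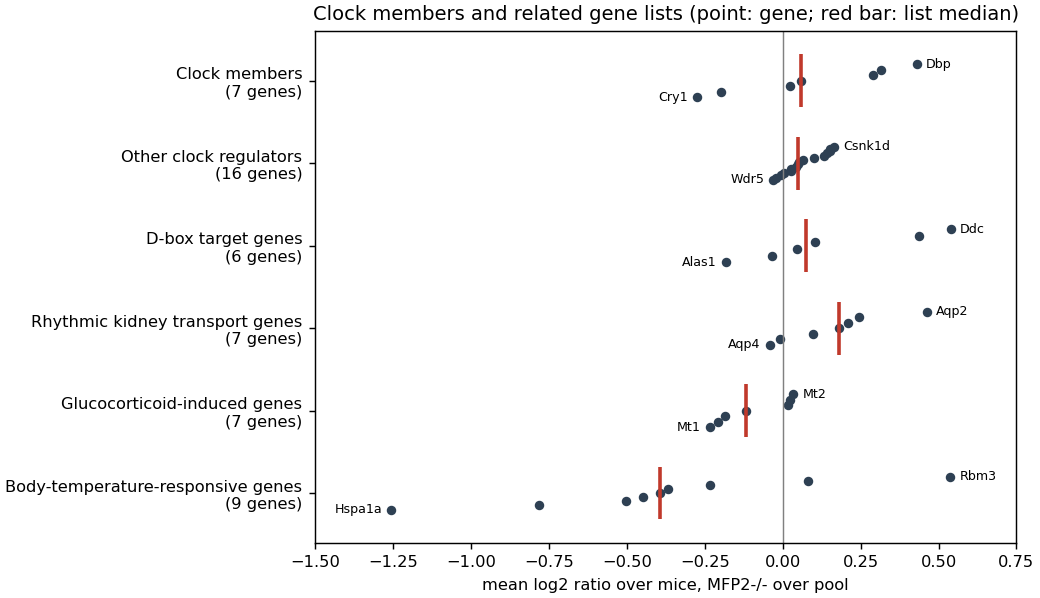
Mean log2 ratio over the mice of each measured gene in the clock member list and the related lists, with a red bar at the median of each list. Means are over 4 mice, except that of Ddc (a D-box target gene), which is over 3, without mouse 2. The medians lie between -0.39 for body-temperature-responsive genes and 0.18 for rhythmic kidney transport genes, and the clock members run from -0.27 (Cry1) to 0.43 (Dbp).

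With orientation means removed, the genes whose values over the 16 arrays were most like those of Dbp were Cdk2ap1 (r = 0.84), Akr1c19 (r = 0.81), Cyp2d10 (r = 0.79), Snx1 (r = 0.76) and Atg10 (r = 0.74), out of 9064 genes compared by Pearson correlation. The other members did not lead this order. Tef stood at 0.07, Per1 at 0.13, Nfil3 at -0.09, Per3 at -0.27, Per2 at -0.44 and Cry1 at -0.63. Arrays of one mouse share its RNA and all arrays share the pool, so these coefficients describe these arrays and carry no p.

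Between 19737 and 20228 of 20355 probes had a value on an array, and arrays of one orientation had Pearson correlations across probes down to 0.008. In bulk kidney RNA a change in the mix of cells and a change of mRNA per cell cannot be told apart. Marker lists for tubule segments, podocytes, endothelium, leukocytes and adjoining adrenal and fat tissue had medians between -0.06 and 0.23. The podocyte list, at 0.23, and the distal tubule list had 1 measured gene each. In all lists 0 genes passed limma's adjusted test against the pool. Of all 16140 rows 0 passed it, so that count says nothing about the cell mix. The proximal tubule marker Miox ran from -0.25 in mouse 1 to 1.25 in mouse 2 (limma adjusted p = 0.033 between mice), and the adrenal marker Star from -0.75 to 0.64 (0.009). The part of these mixes in the clock members' values was not tested. Other markers the naming rule chose were Cubn at 0.24 and Slc34a1 at -0.20 (proximal tubule) and Slc12a1 at 0.56 (thick ascending limb). The rule also chose Aqp2 at 0.46 (collecting duct), Cdh5 at 0.34 (endothelium) and Plin1 at 0.12 (fat). Slc34a1 was at -0.05 with the mutant in Cy5 and -0.35 with the mutant in Cy3. Markers of one cell type did not always share a sign. Umod of the thick ascending limb was at -0.15, below the pool on 12 of 16 arrays. Adipoq of fat was at -0.13 and Slc4a1 of the collecting duct at -0.04. Umod, Adipoq and Slc4a1 were named after their values were seen. Plin1 was at -0.32 with the mutant in Cy5 and 0.55 with the mutant in Cy3 (limma adjusted p = 0.039 for the difference). The targeted gene, Hsd17b4, was at -0.84, -0.34, 0.12 and 0.09 in mice 1 to 4, and its 2 probes disagreed, at -0.91 and 0.43. The sources used here do not say whether these probes lie in the deleted part, so Hsd17b4 does not check the labels.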

How the data were processed

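Two-colour cDNA arrays compared kidney RNA of each MFP2-/- mouse with the wild-type pool. The values are log2 ratios per probe as the authors deposited them, 1 column per array; the sources used here do not give scanner, background correction, normalisation, direction or log base, and the base was inferred from the size of the extreme spots. The titles and source name of mouse 1 carry different animal numbers, and it was taken as 1 mouse by its animal ID. Signal over background is unknown, so the number of arrays limits the precision.

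Values over 10 in absolute size (12 to 71 per array) were treated as missing. Arrays were centred on their median and the 4 arrays of a mouse counted as 1 replicate. Probes measured in both orientations in 3 or more mice were kept, 20187 of 20355. Of all probes 14030 carried 1 symbol in the platform annotation, 5 several and 6320 none, and 13994 symbols were updated through the RefSeq table of GRCm38.p6. Probes with the same symbol were averaged, giving 16140 rows. Means over mice were tested against 0, and mice and dye orientations against each other, two-sided, with limma 3.58.1 (lmFit, eBayes, Benjamini-Hochberg adjustment at 0.05) in R 4.3.3. The scripts were tested on simulated data. No 2 arrays held identical values.

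The members and lists were chosen with earlier results of these data known. Named were every measured member, Hsd17b4, from each other list the 3 genes with the largest absolute mean among those with the same sign in all mice and any gene that differed between mice, and the 5 genes most correlated with Dbp over arrays. Alternatives changed centring, scaling, the extreme spots, the direction, the summary per mouse, the probes, orientations, array repeats and mice used, the prior and the replicate unit.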

Additional observations from a re-analysis of the deposited data

Results flagged for a closer look

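Per3 differed between the dye orientations under the same contrast, by -2.24 (mutant in Cy5 minus mutant in Cy3, limma adjusted p = 0.049), with means of -0.83 and 1.41. Hspa1a in mouse 4, at -0.67, stood apart from the other 3 mice, which lay between -1.54 and -1.41. The gap to the nearest mouse was 0.846 of the range, above Dixon's critical value for 4 samples. This rule was applied to 30 genes and differences and found 1, where chance gives about 1 in 20.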

How the results depend on the processing

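Rows called for mutant against pool numbered 0 (1459 at an unadjusted limma p under 0.05) and 12 when values were read as Cy5 over Cy3, 3 with the mutant in Cy5 alone, 1 in Cy3 alone and 221 (182 higher, 39 lower) with all arrays and the mouse as a random block. They stayed at 0 without each mouse in turn, from 0 to 0. That block fit had a consensus correlation of 0.035 within mice, so it counted the 16 arrays as nearly independent although 4 come from each mouse.

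Dbp minus Nfil3 was -0.16 when read as Cy5 over Cy3, 0.47 with the mutant in Cy5 alone and 0.78 in Cy3 alone, and 0.58 to 0.69 without each mouse. Dbp minus the Per and Cry genes was 0.79 with the mutant in Cy5 alone, 0.022 in Cy3 alone and 0.36 to 0.49 without each mouse. Over 15 alternatives the mean of Dbp was above 0 in 15 and that of Tef in 15, while Nfil3 was below 0 in 14 and Cry1 in 14. The 15 include the Cy5 over Cy3 reading, where Dbp was at 0.01 ± 0.11 and Tef at 0.10 ± 0.085 (SD, n = 4). The sign of Dbp under that reading is thus not clear of its spread. Nfil3 was above 0 under the Cy5 over Cy3 reading (0.17) and Cry1 with the mutant in Cy3 alone (0.05). Leaving out member values over 2 in size, chosen after seeing the data like the setting without Per3, moved Cry1 to -0.16 and Per3 to 0.15.

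Rows called between mice numbered 30, and 16 with arrays scaled to the same spread, 2 when read as Cy5 over Cy3, 51 with probes on all 16 arrays, 49 with every probe on its own, 4 without a dye term and 5 to 13 without each mouse. Rows called for dye orientation numbered 1332, and 2740 without centring and 44 to 2701 without each mouse. The highest, 2701, was without mouse 2. Without centring, the dye call was gained by Nfil3 (adjusted limma p = 0.013) and Tef (0.036). Causes were not tested. The comparison of core-loop repressors with Arntl and Clock was not run. No paired analysis was possible because there is 1 group and each mutant was set against the same pool.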
